A study of Chlorocebus sabaeus with 6 samples.

Results

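Chromosome 21 of the African green monkey (Chlorocebus sabaeus) was examined in COS-1 cells, a kidney fibroblast line transformed with simian virus 40 sequences. The deposited table lists 2529 rows on this chromosome, and the 936 whose mean over the 6 libraries reached 1 FPKM are described here, out of 28434 such rows among the 51520 of the whole table. FPKM is a count of sequenced fragments scaled by the length of the feature and by the size of the library. The rows were divided at position 101477255, the start of one of them, into 652 rows that start before it (the proximal segment) and 284 that start at or after it (the distal segment). These names refer to the numbering of the chromosome, not to its centromere. The chromosome and the boundary were chosen from earlier values of the same lentivirus minus control change, so the difference between the segments is given as a description without a test, and counts of calls on it support nothing further.

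The 3 control libraries came from COS-1 cells labelled as having had no treatment, and the 3 lentivirus libraries from the same line after lentivirus. All 6 samples went without serum for 14 h and were then given EGF (epidermal growth factor, 2 ng/ml) during 90 min, so no unstimulated sample is compared. What the lentivirus carried is not stated, and the series title names Shoc2, a scaffold protein of the ERK1/2 cascade. Nothing states that replicates were separate cultures, so the p-values rest on a spread between libraries that may be only technical.

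EGF binds its receptor and activates RAS, RAF, MEK and ERK1/2 in turn, and ERK1/2 alters transcription within minutes to hours. A lentivirus inserts its DNA copy into host chromosomes. Neighbouring genes lie in shared chromatin domains and are gained or lost together when a stretch of chromosome is gained or lost, which is why transcript levels can be read along a chromosome as well as gene by gene. DNA content and chromatin state are not analysed here.

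The rows carry accessions and no gene symbols. Among the 936 rows, 434 have ENSP accessions, the form Ensembl gives to human proteins, and 502 have JK accessions, the form of nucleotide records. Of 51520 IDs, 0 matched the RefSeq gene table of the species, so no row was given a gene name, the gene lists were not used, and no sequence is shown. SHOC2 was not measured here as a check of the labels. Rows overlap each other often: 366 of the 936 overlap no other row of the table, and the others can share reads with a neighbour. Library sums lay between 2094230 and 2206930 FPKM, chromosome 21 held 3.35% to 3.53% of each, and read numbers are unknown. In each library between 27605 and 27874 rows reached 1 FPKM.

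The distal segment was higher in every lentivirus library than in every control library, and the proximal segment was not. Each value was written as log2(FPKM + 1) minus the mean of its row over the 6 libraries, and the median was taken over the rows of a segment. In the distal segment this median was -0.112, -0.111 and -0.116 in control replicates 1, 2 and 3. It was 0.135, 0.146 and 0.101 in lentivirus replicates 1, 2 and 3. The groups did not overlap, with means of -0.113 ± 0.0028 in control and 0.128 ± 0.023 in lentivirus libraries (SD, n = 3 each).

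In the proximal segment the same median was -0.0027, 0.019 and 0.0091 in the control libraries and -0.0096, 0.022 and -0.0023 in the lentivirus libraries. The groups overlapped there, at 0.0085 ± 0.011 and 0.0034 ± 0.017 (SD, n = 3 each). The difference between the segments within a library does not depend on a scaling factor common to that library, apart from the pseudocount. In bulk RNA a change in the share of cells that express a feature and a change of its RNA per cell cannot be told apart. The difference between the segments was -0.109, -0.130 and -0.125 in control and 0.145, 0.124 and 0.104 in lentivirus libraries, and the groups did not overlap. Their opposite signs add nothing to this, because each row was centred on its own mean.

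**Figure D1:**
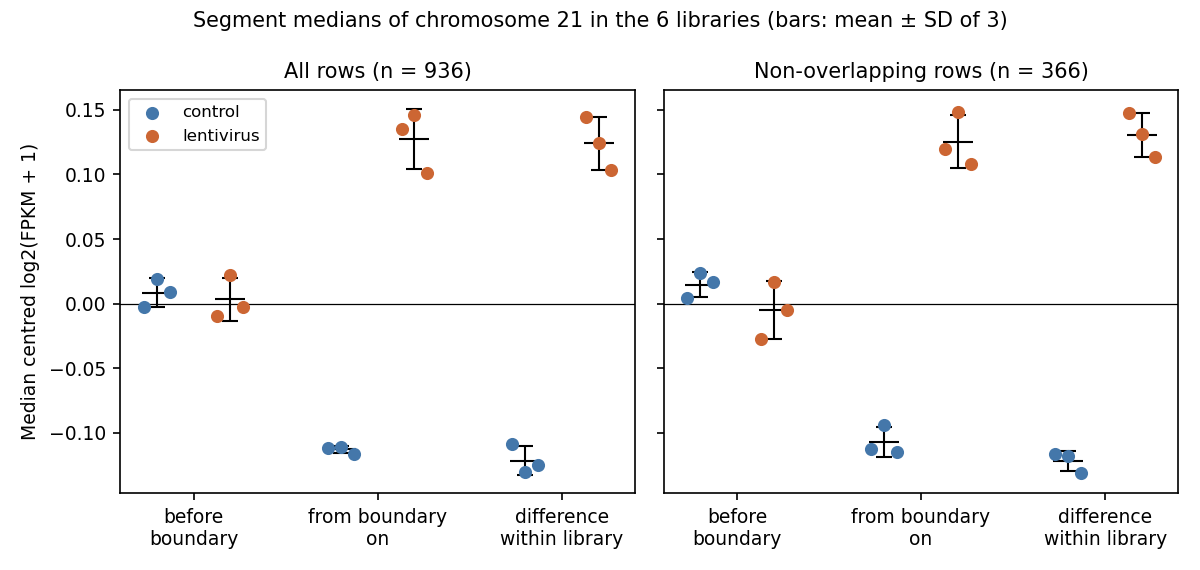
Median of log2(FPKM + 1), centred on each row's mean over the 6 libraries, for the rows before the boundary, the rows from it on, and their difference within each library. Left, all 936 rows; right, the 366 rows that overlap no other. Points are libraries and bars the mean ± SD of 3. Distal control libraries lie at -0.116 to -0.111 and distal lentivirus libraries at 0.101 to 0.146 on the left, while the proximal groups overlap.

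Rows that overlap no other gave the same picture. Among the 97 such distal rows the library medians were -0.113, -0.094 and -0.115 in control and 0.120, 0.148 and 0.108 in lentivirus libraries. Among the 269 such proximal rows they were 0.0041, 0.024 and 0.017 in control and -0.028, 0.017 and -0.0047 in lentivirus libraries. The summed FPKM of the 97 distal rows was 2181, 2120 and 2161 in control and 2625, 2571 and 2572 in lentivirus libraries. The summed FPKM of the 269 proximal rows was 14058, 14459 and 13667 in control and 14337, 14330 and 14318 in lentivirus libraries. The distal sums did not overlap between groups and the proximal sums did.

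Taken row by row, the distal change was a moderate shift of most rows and not a large change of a few. The median change, lentivirus minus control on the log2(FPKM + 1) scale, was 0.24 over the 284 distal rows and 0.0070 over the 652 proximal rows, against -0.0029 over the 27498 tested rows of the other chromosomes. The middle 50% of distal rows lay between 0.040 and 0.39, and 221 of 284 (77.8%) had a positive change. The middle 50% of proximal rows lay between -0.15 and 0.16, with 332 of 652 (50.9%) positive. As a plain ratio of group means, over rows with at least 1 FPKM in every library, the median was 1.21 for 234 distal rows and 1.01 for 561 proximal rows. A change of 1 log2 or more in either direction occurred in 14 distal and 16 proximal rows, and 13 and 16 of these overlapped another row. Without the filter of 1 FPKM the distal median was 0.0027, and 992 of the 1593 rows of chromosome 21 under it were below 0.0001 FPKM in every library. At the filter itself, the 3 rows just inside started at 108272916, 20153874 and 118701134, with means of 1.001, 1.003 and 1.004 FPKM and changes of 0.014, 0.25 and 0.66 log2. The 3 just outside started at 118920688, 116951645 and 119198127, with means of 0.984, 0.975 and 0.965 FPKM and changes of 0.097, -0.76 and -0.057 log2.

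**Figure D2:**
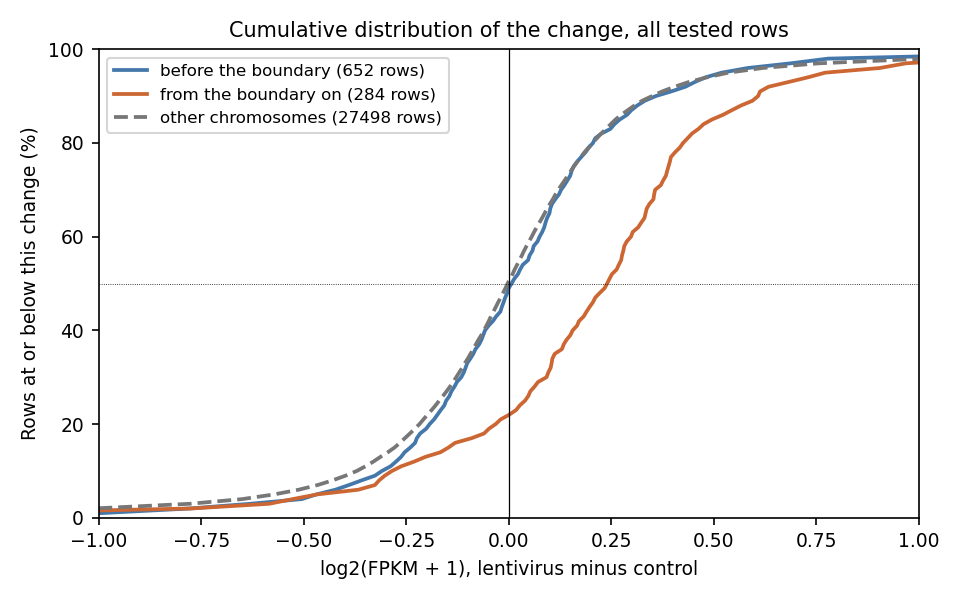
Cumulative distribution of the log2(FPKM + 1) change, lentivirus minus control, for the 652 rows before the boundary, the 284 rows from it on and the 27498 tested rows of other chromosomes. Changes beyond 1 log2 lie outside the axis. The distal curve crosses 50% at 0.24, and the other 2 curves cross it close to 0.

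Each row was tested in a fit of all 28434 rows with limma, and called at a Benjamini-Hochberg adjusted p under 0.05. In the distal segment 53 of 284 rows (18.7%) were called higher and 2 (0.704%) lower. Of all 28434 rows, 2.89% were called higher and 3.59% lower, and since the boundary was set on this contrast nothing is read from the excess. Of the 652 proximal rows 22 (3.37%) were called higher and 19 (2.91%) lower. The 53 distal calls ranged from 0.25 to 0.91 log2.

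The calls of single rows rested on all 6 libraries. Without any 1 of the 6, limma called at most 1 distal row higher and 0 lower, while the distal median change stayed between 0.22 and 0.25 log2. In those 6 fits the proximal segment had at most 1 call in each direction. Calls over all 28434 rows in these fits were not counted, so the loss is not shown to be particular to chromosome 21. At an unadjusted limma p under 0.05, 103 of 284 distal rows were higher and 11 lower with all libraries. Of the 652 proximal rows 72 were higher and 81 lower, and of all 28434 rows 3247 were higher and 3643 lower.

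Groups that did not overlap, all 3 lentivirus libraries on 1 side of all 3 control libraries, were counted as a measure without a model. In the distal segment 117 rows (41.2%) lay above and 17 (5.99%) below, and 150 overlapped. Of all 28434 rows, 15.1% lay above and 16.5% below. Of the proximal rows 94 (14.4%) lay above and 110 (16.9%) below.

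Among rows that overlap no other, 23 of 97 distal rows (23.7%) were called higher by limma with adjustment over all rows, and 0 were called lower. At an unadjusted limma p under 0.05, 43 were higher and 2 lower, against 1245 and 1533 of 9583 such rows on other chromosomes. Of the 9949 such rows of all chromosomes, 3.82% were called higher and 4.95% lower. Of the 97, 52 (53.6%) lay above all control libraries and 3 (3.09%) below, where 18.6% and 21.2% of the 9949 did so. Of the 269 proximal rows of this kind, 13 were called higher and 10 lower.

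Summing overlapping rows to loci, a step added after the data were seen, gave calls that depended less on a single library. By limma with adjustment over 16072 loci, 64 of 163 distal loci (39.3%) were called higher and 4 (2.45%) lower, and 35 (8.97%) and 39 (10.0%) of 390 proximal loci. Over all loci 8.88% were called higher and 10.6% lower. Without 1 library, 41 to 51 distal loci were called higher and 2 or 3 lower, and the lowest count of 41 came without control replicate 3 or without lentivirus replicate 2. The same fits called 13 to 28 proximal loci higher and 17 to 25 lower. Calls over all loci in these fits were not counted.

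The change did not grow steadily along the chromosome. In bins of 5 Mb, of which 20 of 26 held at least 20 rows, the 6 bins from 100 Mb to the end had medians between 0.20 and 0.33 log2, the first of them including a few rows before the boundary. The highest, from 110 to 115 Mb, had 27 of 31 rows positive and 9 called higher, where 2.89% of all tested rows were. The 2 groups of libraries did not overlap in any of these 6 bins, which hold the values that set the boundary. Several bins before 95 Mb, given below, also had groups that did not overlap. In the 5 Mb just before them, from 95 to 100 Mb, the median of 69 rows was 0.11 log2 with 51 rows positive and only 2 called higher, and the groups did not overlap there either. Before 95 Mb the bins with at least 20 rows had medians from -0.16 to 0.10 log2.

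**Figure D3:**
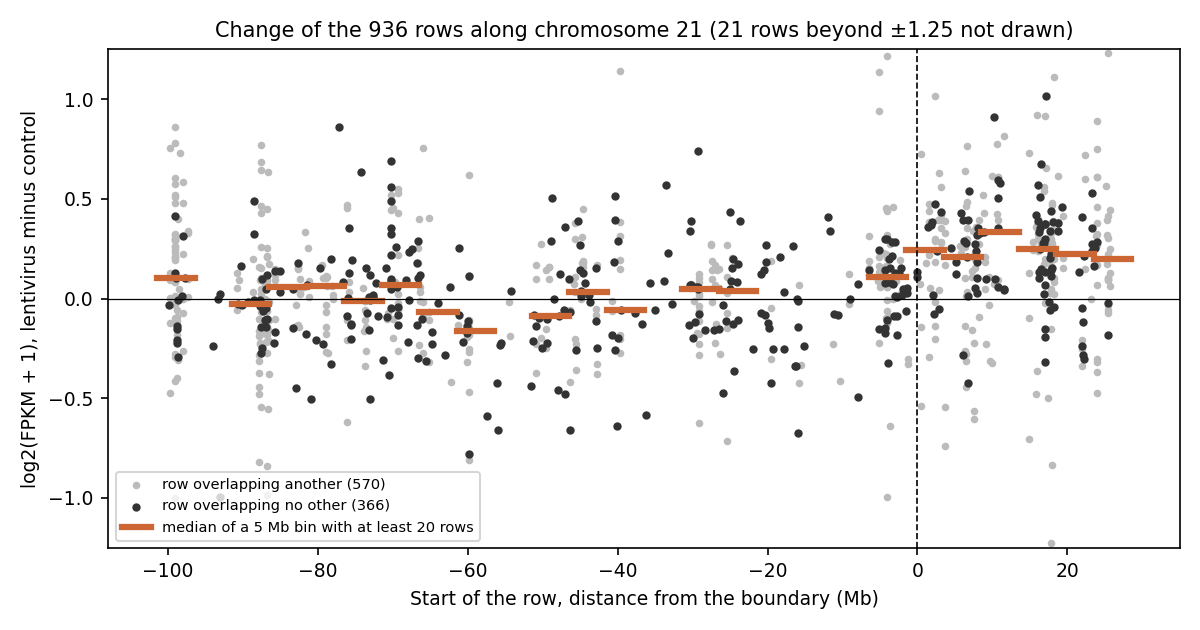
Change of each row (lentivirus minus control, log2(FPKM + 1)) against the distance of its start from the boundary in Mb. Black points overlap no other row, grey points do, and bars are medians of 5 Mb bins with at least 20 rows; 21 rows beyond ±1.25 are not drawn. Bin medians lie between 0.20 and 0.33 to the right of the boundary and between -0.16 and 0.11 to its left.

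Bins of 1 Mb, drawn after the data were seen, placed the start of the higher values less sharply than the single boundary does. From 95 to 100 Mb they had medians of 0.15, 0.13, 0.081, 0.080 and 0.046 log2, over 5, 13, 30, 14 and 7 rows. From 100 to 101 Mb the median of 4 rows was -0.14, and in the next 1 Mb that of 8 rows was 0.089. From 103 to 104 Mb it was 0.25 over 21 rows, and from 104 to 105 Mb 0.39 over 13 rows. Of these 13 rows 6 were called higher, where 2.89% of all tested rows were. Most of these bins hold under 20 rows, so single loci can move them.

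Within the proximal segment, 4 consecutive bins from 35 to 55 Mb were lower. Their medians were -0.067, -0.16, -0.23 and -0.085 log2 over 23, 27, 8 and 28 rows, of which 7, 5, 1 and 11 had a positive change. In all 4 bins each lentivirus library lay below each control library, and 1, 2, 2 and 1 rows were called lower, where 3.59% of all tested rows were. From 50 to 55 Mb the groups barely parted, with lentivirus replicate 2 at 0.0063 and control replicate 2 at 0.0067, and 1 row was called higher. In the bins from 85 to 95 Mb, with 12 and 9 rows, each lentivirus library also lay below each control library. From 70 to 75 Mb each lentivirus library lay above each control library, with a median change of 0.049 log2 over 42 rows. The nearest there were lentivirus replicate 1 at -0.0053 and control replicate 2 at -0.018. From 40 to 45 Mb the library medians were 0.046, 0.069 and 0.072 in control and -0.104, -0.070 and -0.087 in lentivirus libraries. At the other end, the bin from 0 to 5 Mb had a median of 0.10 over 75 rows, but its libraries overlapped, with control replicate 1 at -0.092 and lentivirus replicate 2 at 0.135 as the extremes.

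**Figure D4:**
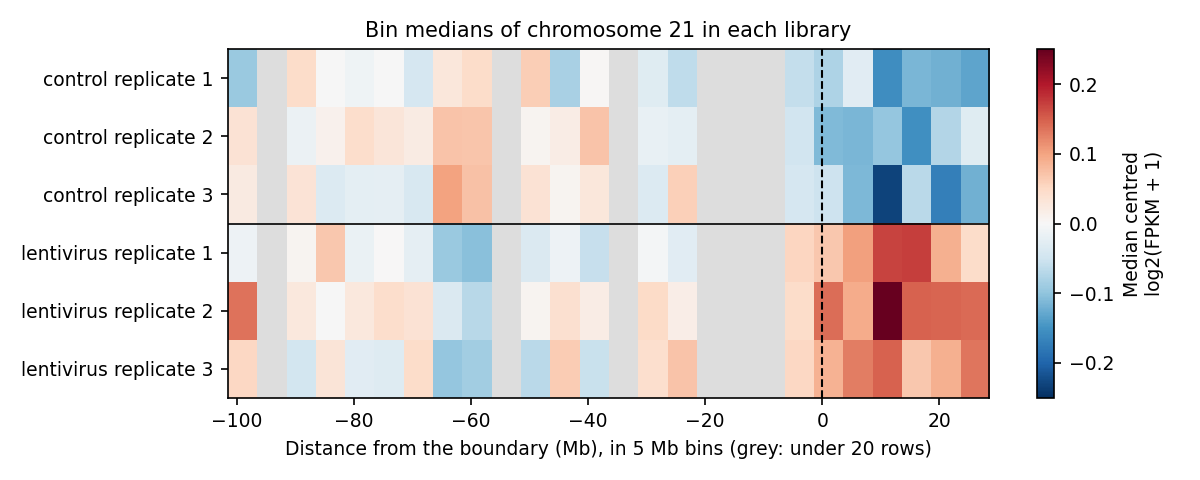
Median centred log2(FPKM + 1) of the rows in each 5 Mb bin (columns, by distance from the boundary in Mb) in each library (lines); grey bins hold under 20 rows. To the right of the boundary all 3 control libraries are below 0 and all 3 lentivirus libraries above it. To the left the sign varies from bin to bin.

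The rows next to the boundary show the values on either side of the division. The last row before it that overlaps no other, from 101364706 to 101367563, had 1.59, 0.792 and 0.866 FPKM in control and 0.816, 1.65 and 1.38 in lentivirus libraries. The one before that, from 100140242 to 100145605, had 6.11, 5.44 and 5.85 FPKM in control and 6.25, 5.81 and 6.13 in lentivirus libraries. Both pairs of groups overlapped. The boundary row itself, from 101477255 to 101715686, had 99.96, 103 and 98.9 FPKM in control and 105, 106 and 114 in lentivirus libraries. Its groups did not overlap, and its change of 0.11 log2 (SE 0.047) was not called (limma adjusted p = 0.243). The next row that overlaps no other, from 102913086 to 102934720, had 23.9, 22.7 and 24.2 FPKM in control and 31.9, 30.2 and 29.4 in lentivirus libraries. It was called higher, by 0.36 log2 (SE 0.052, limma adjusted p = 0.0261).

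Single rows were named by size of change among called rows that overlap no other and whose groups did not overlap. They also had at least 5 FPKM in the higher group and 1 FPKM in every library. In the distal segment 21 rows that rose met this and 0 that fell, and the 5 largest rises are given. Rows of other chromosomes that meet the rule were not counted, so nothing is read from these numbers. ENSP00000247930_1, from 117991288 to 118015872, had 14.4, 13.3 and 12.6 FPKM in control and 24.1, 21.2 and 20.97 in lentivirus libraries. It rose 1.64-fold, a log2 change of 0.67 (SE 0.080, limma adjusted p = 0.0186). ENSP00000419235_1, from 112566467 to 112585907, had 24.8, 24.9 and 26.5 FPKM in control and 39.2, 38.5 and 37.9 in lentivirus libraries. It rose 1.52-fold, with the smallest spread of the 5 (log2 change 0.58, SE 0.046, limma adjusted p = 0.0113).

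The other 3 were of similar size. The row from 108322098 to 108533109 had 8.85, 7.62 and 6.94 FPKM in control and 12.0, 11.8 and 11.4 in lentivirus libraries. The row from 124820820 to 124821567 had 12.8, 12.6 and 12.9 FPKM in control and 17.8, 18.6 and 20.2 in lentivirus libraries. The row from 117797308 to 117812621 had 11.4, 11.6 and 9.40 FPKM in control and 15.5, 15.2 and 16.3 in lentivirus libraries. These rose 1.504-fold, 1.48-fold and 1.46-fold. In all 5 rows the groups did not overlap, because the rule took only such rows. The exact permutation p of each is therefore fixed at 0.10, the smallest that 3 against 3 libraries allow, and nothing is read from it. Tested over all rows, 4 of the 5 lost their call without any 1 library, and ENSP00000419235_1 kept it only without control replicate 3 (limma adjusted p = 0.0496 to 0.0640 over the 6 fits). Tested among loci, with the same values, all 5 kept their call without any 1 library (limma adjusted p at most 0.0455). With no filter on level the rows at 108322098 and 117797308 were not called (limma adjusted p = 0.0713 and 0.0743).

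**Figure D5:**
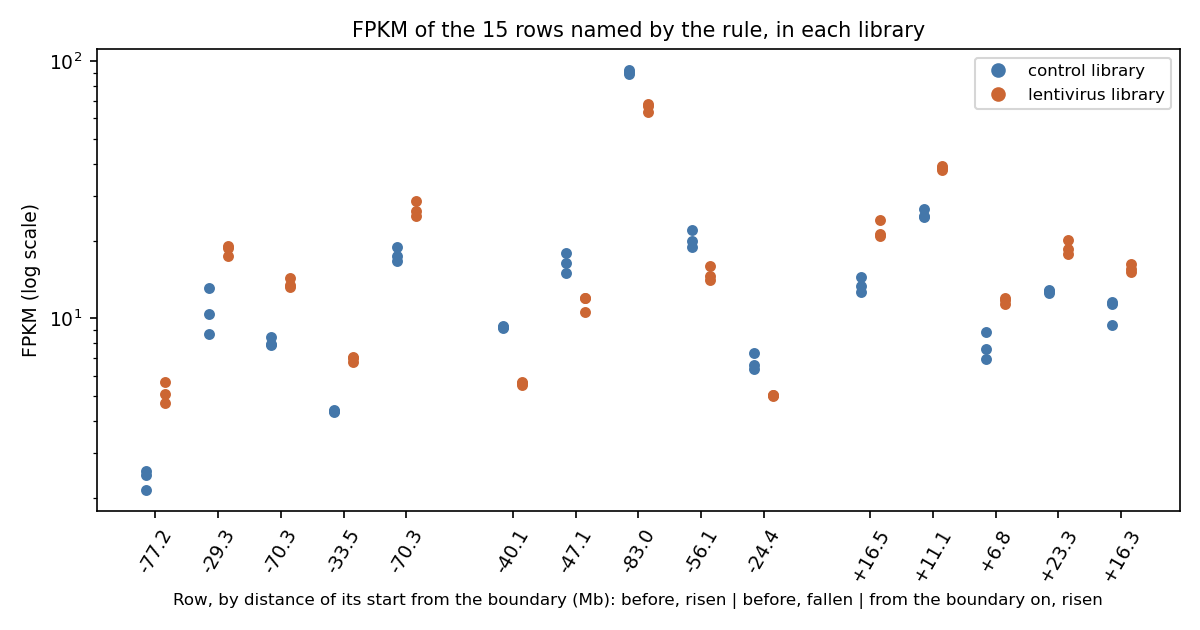
FPKM on a log axis of the 15 rows named by the rule, 3 control and 3 lentivirus libraries each, marked by the distance of the row's start from the boundary in Mb. From left to right, 5 rows before the boundary that rose, 5 before it that fell and 5 from it on that rose. The groups do not overlap in any of the 15 rows, because the rule took only such rows.

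The most abundant distal rows that overlap no other did not all move the same way. The row from 109474754 to 109482495 had 294, 278 and 306 FPKM in control and 406, 351 and 340 in lentivirus libraries, and was not called (log2 change 0.32, SE 0.081, limma adjusted p = 0.0829). The row from 104609107 to 104657405 had 201, 185 and 192 FPKM in control and 272, 257 and 254 in lentivirus libraries. It was called higher (log2 change 0.44, SE 0.049, limma adjusted p = 0.0168). The row from 123449132 to 123458799 had 159, 145 and 160 FPKM in control and 132, 137 and 123 in lentivirus libraries, a change of -0.24 log2 (SE 0.061) that was not called (limma adjusted p = 0.0824). In each of the 3 rows the groups did not overlap. Tested among loci, the first and the last were called as well, higher and lower (limma adjusted p = 0.0340 and 0.0354), and both lost the call without 1 library in 5 of 6 fits.

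Some lower values lay near 123.5 Mb in the distal segment, in a 5 Mb bin where 19 of 28 rows had a positive change. JK115384.1_1, from 123459373 to 123459995, lies just after the abundant row last named. It is 1 of 2 distal rows called lower, with 114, 120 and 125 FPKM in control and 90.5, 100.8 and 92.97 in lentivirus libraries (log2 change -0.34, SE 0.059, limma adjusted p = 0.0382). Its locus of 3 overlapping rows summed to 252 ± 5.73 FPKM in control and 206 ± 8.66 in lentivirus libraries (SD, n = 3). A run of 3 rows that overlap no other, from 123591295 to 123775642, had negative changes of -0.30 to -0.12 log2. The groups overlapped in all 3, and 0 were called. Just after them, the locus from 123909585 to 123910258 rose from 9.38 ± 0.861 to 15.99 ± 2.30 FPKM (SD, n = 3, limma adjusted p = 0.0105 among loci). The second distal row called lower, from 107921901 to 107922343, lies in a locus of 26 rows. It fell from 152 ± 9.12 to 111 ± 9.13 FPKM (SD, n = 3), while that locus summed to 1995 ± 170 and 1917 ± 98.5 FPKM. In the same locus 1 row was called higher, and overlapping rows can share reads. Both rows called lower, and the locus that rose, were picked out with their values known.

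The longest stretch of 1 direction lay between these places. From 108272916 to 118430409, 36 consecutive rows that overlap no other all had a positive change, with a median of 0.28 log2 and 11 called higher. With the overlapping rows in between, the stretch held 87 rows, of which 74 had a positive change and 20 were called higher and 0 lower. Over the genome 3.82% of rows that overlap no other and 2.89% of all rows were called higher. The longest such run in the proximal segment held 9 rows. The run was found in the same values that set the boundary and is given as a description.

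In the proximal segment rows changed in both directions. There 12 rows that rose and 7 that fell met the rule, and the 5 largest each way are given. As in the distal segment, nothing is read from these counts. These rises lay between 0.56 and 0.86 log2 and these falls between -0.64 and -0.36. The row from 24257087 to 24500641 had 2.47, 2.15 and 2.54 FPKM in control and 5.08, 5.68 and 4.67 in lentivirus libraries, a 2.16-fold rise (log2 change 0.86, SE 0.099, limma adjusted p = 0.0174). The short row from 72173178 to 72173329 had 10.8 ± 2.23 FPKM in control and 18.4 ± 0.849 in lentivirus libraries (SD, n = 3), a 1.71-fold rise. The row from 67976638 to 68152013 had 4.37 ± 0.0245 and 6.96 ± 0.164 FPKM, a 1.59-fold rise. The other 2, from 31221229 to 31223275 and from 31225309 to 31227086, are neighbours and are given with their surroundings below.

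Of the 5 proximal rows that fell, ENSP00000265724_1, from 61357145 to 61430300, fell furthest. It had 9.30, 9.21 and 9.34 FPKM in control and 5.59, 5.68 and 5.52 in lentivirus libraries, a log2 change of -0.64 (SE 0.052, limma adjusted p = 0.0117). The row from 54385363 to 54443167 had 16.5, 15.02 and 17.9 FPKM in control and 12.0, 12.0 and 10.6 in lentivirus libraries. The row from 18511831 to 18513316 had 89.0, 90.4 and 92.2 FPKM in control and 67.0, 68.3 and 63.4 in lentivirus libraries. The remaining 2, from 45407517 to 45408117 and from 77067786 to 77159471, changed by -0.42 and -0.36 log2. All 10 proximal rows lost their call over all rows without any 1 library. Tested among loci, 7 of the 10 kept it in all 6 such fits, and the rows at 72173178, 77067786 and 45407517 lost it in 3, 3 and 1 of them (limma adjusted p up to 0.0560, 0.0578 and 0.0544). These 3 rows and the row at 54385363 were also not called with no filter on level (limma adjusted p = 0.0754 to 0.112).

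A compact group of proximal rows near 31.2 Mb had positive changes throughout. It holds the 9-row run and spans 31168792 to 31268221, with 11 ENSP rows between 1379 and 2725 bases long, all with a positive change and a median of 0.35 log2. Of the 11, 4 were called higher, 7 lay above all control libraries, and 4 overlapped between groups, where 2.89% of all tested rows were called higher and 15.1% lay above. The row from 31221229 to 31223275 had 7.85, 7.96 and 8.50 FPKM in control and 13.2, 13.5 and 14.4 in lentivirus libraries, a 1.69-fold rise. Its neighbour from 31225309 to 31227086 had 17.5, 16.7 and 19.0 FPKM in control and 28.6, 26.2 and 24.9 in lentivirus libraries, a 1.498-fold rise. The locus of 2 overlapping rows from 31203421 to 31205288 rose from 52.9 ± 4.196 to 75.7 ± 4.76 FPKM (SD, n = 3), and both its rows were called. By contrast the row from 31238181 to 31239687 had 5.00, 4.28 and 5.44 FPKM in control and 4.51, 5.32 and 5.50 in lentivirus libraries. The group was picked out with its values known.

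The segments resembled each other in features that the division did not use. The median of the mean level was 14.96 FPKM in the distal and 11.8 in the proximal segment, with middle 50% ranges of 3.94 to 45.8 and 4.69 to 35.6 FPKM. The median span of a row was 4134 bases in the distal and 4764 in the proximal segment. ENSP rows made up 41.2% of distal and 48.6% of proximal rows, and rows without overlap 34.2% and 41.3%. The median within-group SD of a row was 0.15 log2 in the distal and 0.13 in the proximal segment, so the distal rows were not the less variable ones.

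The distal rows were divided by mean level into 3 classes of about equal size. In the lowest class, up to 6.68 FPKM, the median change was 0.11 log2 with 4 of 95 rows called higher. In the middle class, from 7.11 to 30.6 FPKM, it was 0.33 log2 with 18 of 94 called higher. In the highest class, from 30.9 to 1147 FPKM, it was 0.28 log2 with 31 of 95 called higher. Among rows of the whole genome at the levels of these 3 classes, 1.04%, 3.3% and 4.72% were called higher, and nothing is read from the difference. A pseudocount of 1 compresses the change of low rows, and the median plain ratio was 1.15, 1.24 and 1.22 in these classes for the rows with at least 1 FPKM in every library. The proximal segment, divided in the same way, had medians of 0.020, 0.010 and -0.0057 log2, with 4 of 217, 11 of 217 and 7 of 218 rows called higher.

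ENSP rows and JK rows of the distal segment were both shifted upward. The median change was 0.27 log2 for 117 ENSP rows, with 82.9% positive, and 0.20 for 167 JK rows, with 74.3% positive. Of these, 35 ENSP and 18 JK rows were called higher, where 4.02% of all ENSP rows and 1.86% of all JK rows were. When JK rows were tested alone, limma called 0 distal JK rows higher. In the fit of all rows 44 of them were higher and 8 lower at an unadjusted limma p under 0.05. Of the 335 proximal JK rows 21 were higher and 27 lower at that p. JK rows varied more between replicates, with a median within-group SD of 0.24 log2 against 0.098 for ENSP rows, and most of them overlap another row. The proximal medians were -0.0086 log2 for 317 ENSP rows and 0.029 for 335 JK rows, with 16 and 6 called higher.

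Other chromosomes also held 5 Mb bins with medians as high as those of the distal segment. How long a stretch such bins formed there was not examined. Of 419 bins of 5 Mb in the genome with at least 20 rows, 29 had a median of at least 0.15 log2 and 28 one of -0.15 or less. The highest lay on chromosome 18, from 45 to 50 Mb, with a median of 0.36 and 15 of 42 rows called higher, above the 0.33 of the highest bin of chromosome 21. Of the 29, 6 lay on chromosome 21, all of them from 100 Mb on, 6 on chromosome 20 and 4 on chromosome 24. Over their whole length, chromosomes 20 and 24 had median changes of 0.11 log2 (2116 rows) and 0.097 log2 (823 rows), and chromosome 21 had one of 0.071 (936 rows). The difference between these chromosomes and the distal segment was not tested.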

How the data were processed

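Messenger RNA from 6 COS-1 samples, 3 control and 3 lentivirus, was sequenced. The authors deposited FPKM values, 1 column per library. How libraries were scaled to each other is not stated. The submitters' processing notes name Cuffdiff, Cufflinks 2.1.1, Bowtie2 2.1.0.0, TopHat2 2.0.10 and CASAVA. Their order, and the genome build, were not given in the sources used here, and positions are those of the deposited table. FPKM keeps no read counts, so depth and counting error cannot be given.

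Rows averaging 1 FPKM or more were fitted together on log2(FPKM + 1) in limma 3.58.1 under R 4.3.3, with lmFit and a trended eBayes and only the group as a term. The two-sided p of each row was adjusted after Benjamini and Hochberg over 28434 rows and called under 0.05. This pseudocount understates the change of low rows. Loci are rows joined by overlap, ignoring strand, with FPKM summed. The fit was tested on simulated data. Medians over rows have no test.

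The chromosome, boundary, lists and rule for named rows were chosen with earlier results of these data known. The rule took, per segment, up to 5 rises and 5 falls among called rows that overlap no other, with groups that do not overlap, at least 5 FPKM in the higher group and 1 FPKM in every library, then, called or not, the 3 most abundant and the 3 nearest the boundary of the rows that overlap no other. Gene lists could not be used without symbols, and at most 2 IDs in each direction are printed. Alternatives covered pseudocount, filter, scaling, intensity trend, overlap, accession type, boundary, left-out libraries and the replicate number as a block.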

Additional observations from a re-analysis of the deposited data

How the results depend on the processing

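The direction of the distal median held under every alternative run, but its size and the calls did not. The 3 medians, proximal, distal and their difference within libraries, were 0.0070, 0.24 and 0.246 log2. The distal median and the difference moved to 0.27 and 0.263 with a pseudocount of 0.1, to 0.18 and 0.177 with one of 5, to 0.29 and 0.271 with a filter of 5 FPKM, and to 0.20 and 0.214 with the boundary 5 Mb nearer the start. Without a filter they fell to 0.0027 and 0.00078. On a TPM scale the proximal median was 0.025 and the difference 0.222, and over loci the difference was 0.264. With ENSP rows alone the 3 values were -0.0086, 0.27 and 0.282, and with JK rows alone 0.029, 0.20 and 0.199. Without 1 library they lay at 0.0033 to 0.015, 0.22 to 0.25 and 0.2305 to 0.2496. Scaling moved the median of all rows by under 0.1 log2.

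Of 96 limma calls on chromosome 21, 53 distal higher, 2 distal lower, 22 proximal higher and 19 proximal lower, 1 to 3 were made without 1 library, with 0 to 1, 0 to 0, 0 to 1 and 0 to 1 in these classes. No filter or no intensity trend left 0 distal rows called lower. Tested alone, rows without overlap gave 34 distal rows higher, against 23 of the same rows in the fit of all rows. ENSP rows alone gave 36 proximal rows higher and 40 lower, against 16 and 16 in the fit of all rows. JK rows alone gave 1 call on chromosome 21, proximal lower, and 0 in the other classes. In the fit of all rows 18 distal JK rows were called higher and 2 lower, and 6 and 3 proximal ones. Over loci 64 distal were higher, 4 lower, and 35 proximal higher, 39 lower. Without 1 library these were 41 to 51, 2 to 3, 13 to 28 and 17 to 25. Calls on the other chromosomes were not counted for the fits without 1 library or for those of part of the rows.

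In the fit with a replicate block 0 rows were called by limma in every class, and 0 of 28434 in all against 1842. At an unadjusted limma p under 0.05 it gave 102 distal rows higher and 12 lower, and 73 and 69 proximal. Without the block these were 103, 11, 72 and 81. Over loci the block left 53 distal and 25 proximal loci called higher, against 64 and 35 without it. It left 2 distal and 17 proximal loci called lower, against 4 and 39. Deviations of same-numbered libraries correlated at 0.13, -0.028 and 0.0028, and control replicate 2 correlated best with lentivirus replicate 3, so the numbers are not shown to pair the samples. All 15 named rows lost their call under the block (limma adjusted p 0.121 to 0.154), 6 lost it with no filter (0.0713 to 0.112), 2 on the TPM scale (0.0704 and 0.0747), and the row at 77067786 also with a pseudocount of 5, a filter of 5 FPKM and median ratio scaling (0.0513, 0.0704 and 0.0523). Of the 15, 0 changed direction under any alternative. Unknown depth limits what can be said of low rows.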
